A study of Mus musculus with 6 samples.

Results

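The genes described here encode proteoglycans, the enzyme that makes hyaluronan and the main cell-surface receptor for hyaluronan. They are 10 mouse genes chosen by symbol and role, by a rule that uses no measured value but with earlier results of these data known: Dcn, Bgn, Vcan, Hspg2, Sdc1, Sdc2, Sdc4, Gpc1, Cd44 and Has2. All 10 are among the 53465 genes of the count table, 9 were detected, and the same 9 passed the filter on low counts together with 8191 other genes. RNA sequencing was done on ID8, a tumour-forming line derived from the surface epithelium of the mouse ovary. The study's question was how the transcriptome responds to loss of NAT10, which acetylates cytidines in RNA. There are 3 libraries labelled KO and 3 labelled WT. By the series description these are ID8 cells stably carrying sgNat10, a guide RNA against Nat10, and ID8 cells stably carrying the control guide sgNC. The labels do not say that KO is sgNat10 and WT is sgNC, and they were taken so here. Each group is thus 1 guide-bearing line, and the guide cannot be told apart from other ways in which the 2 lines may differ. The replicates are numbered 4 to 6 in each group and whether they are separate cultures is not said, so the spread behind the p-values may be technical only.

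Proteoglycans are core proteins that carry long sulfated sugar chains. Heparan sulfate chains on syndecans, glypicans and perlecan hold growth factors at the cell surface and in the basement membrane. Chondroitin or dermatan sulfate chains are carried by versican, decorin and biglycan. Hyaluronan is a sugar chain without a core protein, spun out at the plasma membrane and bound by CD44 and versican. In ovarian cancer, CD44 and hyaluronan are best known for the attachment of tumour cells to the mesothelium that lines the peritoneal cavity.

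The targeted transcript, Nat10, had 315, 133 and 445 counts in replicates 4, 5 and 6 labelled KO, against 168, 128 and 292 in WT replicates 4, 5 and 6. The groups overlapped. Scaled for depth this was 106 ± 43.1 CPM in the libraries labelled KO and 112 ± 53.1 CPM in WT (SD, n = 3 each), where CPM is a count divided by the TMM-scaled library size in 1000000s. The log2 fold change was -0.07 ± 0.48 (SE), with an edgeR adjusted p of 0.99996. A small edit need not lower counts taken over whole exons, so this check cannot decide whether the guide cut. Directions below are those of the libraries labelled KO against those labelled WT.

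Library totals ran from 2234305 to 3126208 counts in the libraries labelled KO and from 1687466 to 2148715 in WT, so depth moved with the groups. Its part in the results was not tested. One count was worth 0.310 to 0.428 CPM in the libraries labelled KO and 0.500 to 0.608 CPM in WT. The 7 epithelial and mesothelial markers summed to between 4180 and 4827 CPM in the libraries labelled KO and between 5854 and 6330 CPM in WT, with Krt19 the most abundant and Krt7 near 0. Members of that list moved in opposite directions. Krt19 (2223 ± 32.1 CPM in the libraries labelled KO, 4202 ± 203 CPM in WT; SD, n = 3 each) and Krt18 were lower in edgeR (adjusted p = 0.0044 and 0.0195), and Msln was higher (1636 ± 209 CPM in the libraries labelled KO, 789 ± 83.5 CPM in WT; adjusted p = 0.0145). The 7 fibroblast markers summed to between 5.85 and 32.6 CPM in the libraries labelled KO and between 42.8 and 85.4 CPM in WT. Thy1 was at 0, Pdgfra, Pdgfrb, Postn and Col1a2 held at most 14 counts in any library, and Col3a1 had 88 counts in replicate 6 labelled KO and 0 elsewhere. The part of these marker levels in the results was not tested. The 7 immune markers held at most 5 counts per library and the 5 endothelial markers at most 12.

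Sequence upstream of the RefSeq start site was at hand (GRCm38.p6, the coordinates of mm10) for 6 of the 10 genes. Shown are the 250 bases upstream of the RefSeq start of Cd44, Bgn and Vcan, all higher in every library labelled KO than in any WT library, and of Sdc4, whose estimate lay at 0. In GENCODE M21 the Sdc4 gene starts farther upstream, so the Sdc4 window lies inside that gene span, though in no annotated exon. Capitals mark the GC box GGGCGG, searched on both strands with overlapping matches counted.
Cd44, chr2:102901666-102901915, minus strand: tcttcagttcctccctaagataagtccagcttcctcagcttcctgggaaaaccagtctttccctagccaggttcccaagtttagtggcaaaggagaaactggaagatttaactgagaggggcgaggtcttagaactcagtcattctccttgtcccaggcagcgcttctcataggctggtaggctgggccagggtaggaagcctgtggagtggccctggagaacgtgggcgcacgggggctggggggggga
Bgn, chrX:73483351-73483600, plus strand: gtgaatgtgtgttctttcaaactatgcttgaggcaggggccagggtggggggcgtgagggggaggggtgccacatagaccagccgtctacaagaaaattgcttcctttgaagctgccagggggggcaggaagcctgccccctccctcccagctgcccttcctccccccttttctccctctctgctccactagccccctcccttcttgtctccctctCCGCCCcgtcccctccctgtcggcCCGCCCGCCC
Vcan, chr13:89742513-89742762, minus strand: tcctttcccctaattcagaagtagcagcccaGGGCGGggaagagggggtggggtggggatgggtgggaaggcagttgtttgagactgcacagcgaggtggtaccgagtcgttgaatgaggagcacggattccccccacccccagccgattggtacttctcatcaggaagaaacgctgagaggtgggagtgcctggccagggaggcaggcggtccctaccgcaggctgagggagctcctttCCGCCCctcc
Sdc4, chr2:164443189-164443438, minus strand: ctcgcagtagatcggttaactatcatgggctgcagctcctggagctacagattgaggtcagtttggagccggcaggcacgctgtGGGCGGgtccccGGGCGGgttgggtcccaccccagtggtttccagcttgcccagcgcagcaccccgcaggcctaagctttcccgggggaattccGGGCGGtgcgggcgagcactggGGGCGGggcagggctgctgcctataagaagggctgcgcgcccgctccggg

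The GC box was found in 5 of the 6 windows, with 5 matches for Hspg2, 4 for Sdc4, 3 for Bgn, 3 for Sdc1 and 2 for Vcan, and it was not found for Cd44. The Hspg2 and Sdc1 windows overlap exons annotated in GENCODE M21, so their matches and base content include sequence annotated there as transcribed. Of 32851 such windows in the same table, 32.7% held it. The TEAD motif GGAATG (12.6% of windows), the AP-1 motif TGAGTCA (4.46%) and the TATA box TATAAA (12.4%) were searched in the same way and were found in none of the 6 windows. The Cd44 window had the lowest content of G and C among the 6, at 56.4%, and the Hspg2 window the highest, at 70.0%. These are matches of letters in a short window and describe the sequences only. Genes with estimates above and at 0 both held GC boxes.

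None of the 9 tested genes passed an adjusted p of 0.05 in the quasi-likelihood test of edgeR, adjusted by Benjamini-Hochberg over all 8200 tested genes, where 0.402% of all tested genes did (33 genes). At an unadjusted p under 0.05, Cd44, Dcn, Bgn and Hspg2 were higher in the libraries labelled KO and no member was lower, where 2.70% of all tested genes were higher. Cd44, Dcn, Bgn and Vcan were higher in every library labelled KO than in any WT library, which held for 6.94% of all tested genes. DESeq2, run as an alternative, called Cd44, Dcn and Bgn higher, where it called 1.28% of the tested genes higher. The median log2 fold change over the 9 genes was 0.47, against -0.02 over all tested genes. Among the 818 tested genes that averaged at least 200 CPM, a subset chosen after the values were seen, 10.9% were higher without overlap. That subset holds 5 members (Dcn, Bgn, Hspg2, Sdc4 and Cd44), of which 3 were higher without overlap.

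**Figure D1:**
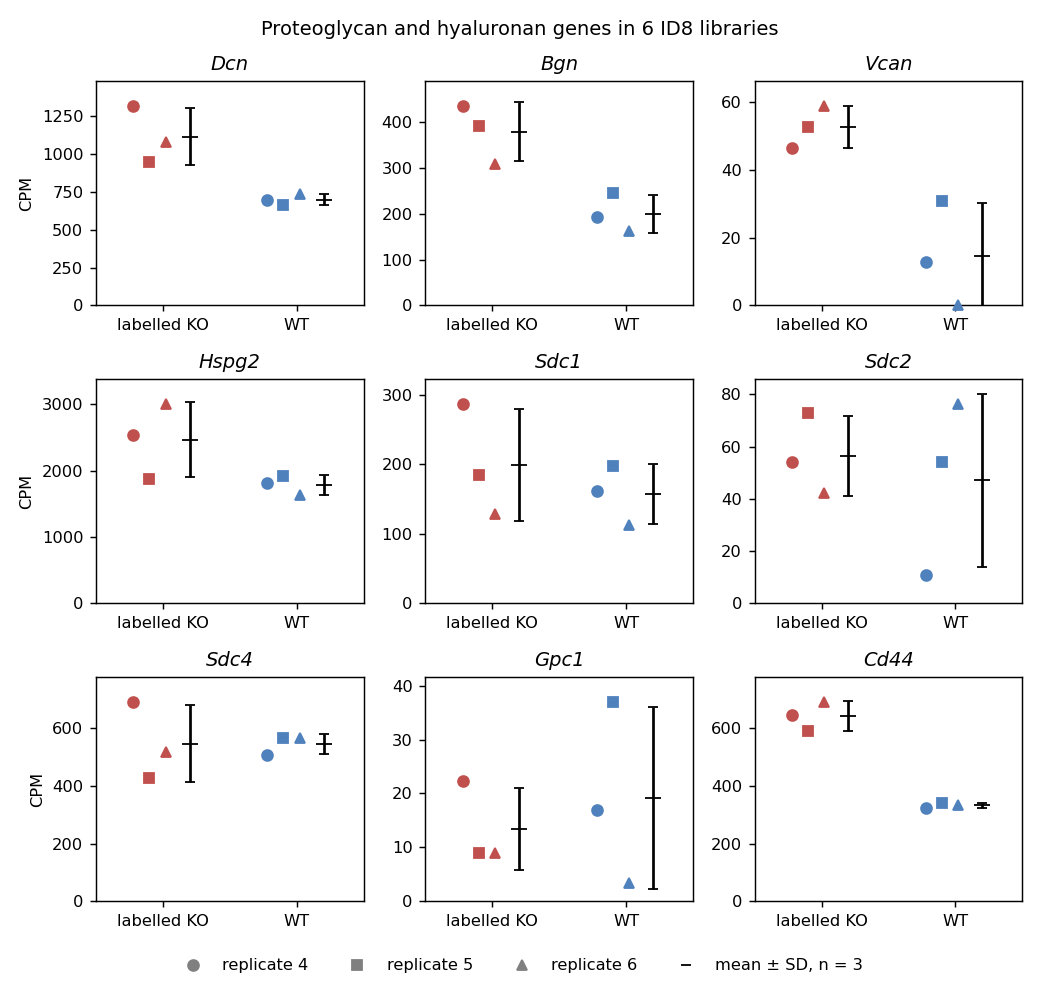
CPM of the 9 detected genes in each library (y axis, from 0), with the libraries labelled KO on the left and WT on the right of each panel. Symbols are replicates, bars are the mean ± SD (n = 3 each). The groups are separate for Dcn, Bgn, Vcan and Cd44 and overlap for the other 5, and the lower bar of Vcan in WT runs below 0 and is not drawn there.

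Cd44, the receptor through which cells bind hyaluronan, had the smallest p-value of the 9 tested genes. Cd44 (ENSMUSG00000005087, chr2:102811141-102901665) had 644, 589.6 and 690.0 CPM in replicates 4, 5 and 6 labelled KO, against 323, 340.3 and 332 CPM in WT replicates 4, 5 and 6. The groups were far apart, with the lowest library labelled KO well above the highest WT library. The means were 641 ± 50.2 CPM in the libraries labelled KO and 332 ± 8.72 CPM in WT (SD, n = 3 each). The log2 fold change was 0.95 ± 0.21 (SE), a 1.93-fold difference with a 95% interval of 0.51 to 1.39 on the log2 scale. The edgeR adjusted p was 0.0657, which misses the threshold, and over the alternatives it ran from 6.8e-06 in DESeq2 to 0.300 without WT replicate 5. Cd44 passed with library totals in place of TMM scaling (edgeR adjusted p = 0.0302) and with no filter on low counts (edgeR adjusted p = 0.0305). It did not pass when any 1 library was left out, although its log2 fold change stayed between 0.89 and 1.02 in those fits. The counts are summed over all transcripts of the gene, so the splice forms for which CD44 is known were not resolved.

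Has2, the synthase that makes most of the long hyaluronan in many mesenchymal cells, was not detected. Has2 (ENSMUSG00000022367, chr15:56665627-56694539) had 0 counts in all 6 libraries. A count of 0 allows up to 3 counts over a group, or 0.369 CPM in the libraries labelled KO and 0.558 CPM in WT, and this limit covers counting error only. An antisense transcript, Has2os, shares 4.30% of its exon bases and also had 0 counts. No difference between the groups could be measured for Has2 at this depth.

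Decorin and biglycan, the small leucine-rich proteoglycans, bind collagen fibrils and the growth factor TGF-beta. Dcn (ENSMUSG00000019929, chr10:97479609-97518143) had 1319, 949 and 1082 CPM in replicates 4, 5 and 6 labelled KO, against 697, 666 and 737 CPM in WT. Every library labelled KO was above every WT library, and the spread was wider in the libraries labelled KO. For Dcn the log2 fold change was 0.67 ± 0.19 (SE), or 1.60-fold, with a 95% interval of 0.28 to 1.07 and an edgeR adjusted p of 0.246 (DESeq2 adjusted p = 0.00457). Bgn (ENSMUSG00000031375, chrX:73483602-73495933) had 434, 391 and 308 CPM in replicates 4, 5 and 6 labelled KO, against 193, 244 and 162 CPM in WT. Its groups did not overlap, and the lowest library labelled KO, replicate 6, stood nearest to WT replicate 5. For Bgn the log2 fold change was 0.92 ± 0.27 (SE), or 1.89-fold, with a 95% interval of 0.34 to 1.496 and an edgeR adjusted p of 0.304 (DESeq2 adjusted p = 0.00804). The call of both genes thus depended on the tool.

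Taken as a sum, the pair gave 1495 ± 226 CPM in the libraries labelled KO and 900.1 ± 9.86 CPM in WT (SD, n = 3 each). Decorin made up most of it in every library. Biglycan had 0.329, 0.412 and 0.285 counts per decorin count in replicates 4, 5 and 6 labelled KO, against 0.277, 0.367 and 0.220 in WT. These ratios overlap between the groups. The sum of the fibroblast markers was lower in each library labelled KO than in any WT library, and this rested on Col1a1, a fibrillar collagen chain. Col1a1 had 1, 38 and 6 counts in replicates 4, 5 and 6 labelled KO against 120, 171 and 74 in WT. Other markers of that list did not go the same way. Pdgfra had 14, 5 and 1 counts in the libraries labelled KO against 8, 0 and 0 in WT. Col3a1 had 88 counts in replicate 6 labelled KO and 0 elsewhere. The part of these markers in the Dcn and Bgn levels was not tested.

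Perlecan, a large basement membrane proteoglycan with heparan sulfate chains, was the most counted of the 10 genes. Hspg2 (ENSMUSG00000028763, chr4:137468769-137570630) had 2535, 1869 and 3006.5 CPM in replicates 4, 5 and 6 labelled KO, against 1808, 1916 and 1629 CPM in WT. Replicates 4 and 6 labelled KO lay above all WT libraries, while replicate 5 lay among them. Hspg2 had a log2 fold change of 0.47 ± 0.18 (SE), or 1.38-fold, with a 95% interval of 0.09 to 0.85 and an edgeR adjusted p of 0.547 (DESeq2 adjusted p = 0.101). It was 0.30 without KO replicate 6 and 0.64 without KO replicate 5.

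Versican, a large chondroitin sulfate proteoglycan that binds hyaluronan, was scarce. Vcan (ENSMUSG00000021614, chr13:89655312-89742509) had 119, 123 and 190 counts in replicates 4, 5 and 6 labelled KO, against 21, 62 and 0 counts in WT. This was 52.7 ± 6.26 CPM in the libraries labelled KO and 14.6 ± 15.6 CPM in WT (SD, n = 3 each). The libraries labelled KO were close to each other and all above WT, whose 3 libraries were spread between 0 and 31.0 CPM. Vcan had a log2 fold change of 1.85 ± 1.25 (SE), with a 95% interval of -0.82 to 4.51 and an edgeR adjusted p of 0.99996 (DESeq2 adjusted p = 0.477). Leaving out 1 library moved it between 1.26 without WT replicate 6 and 3.03 without WT replicate 5, so the size of the difference rested on the WT libraries.

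**Figure D2:**
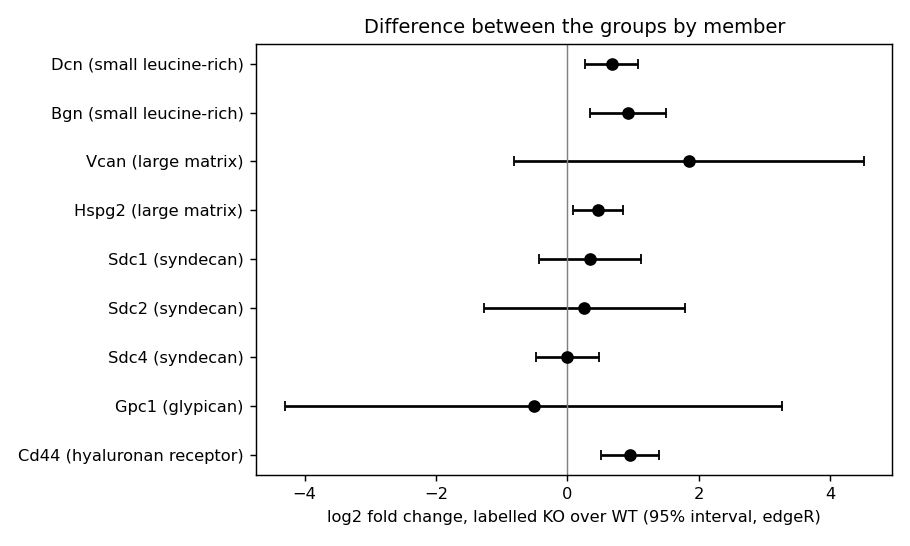
Log2 fold change of each tested gene, libraries labelled KO over WT (x axis), with its 95% interval derived from the edgeR test as a horizontal bar. The intervals of Dcn, Bgn, Hspg2 and Cd44 lie above 0, those of the other 5 cross 0, and that of Gpc1 is the widest, from -4.30 to 3.27.

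The syndecans, membrane-spanning carriers of heparan sulfate that act as co-receptors and link the matrix to the cytoskeleton, did not pass the test in any setting run. Sdc4 (ENSMUSG00000017009, chr2:164424247-164443887), the syndecan of focal adhesions, had 690.1, 428 and 517 CPM in replicates 4, 5 and 6 labelled KO, against 505, 564 and 565 CPM in WT. The WT values fell inside the range of the libraries labelled KO. The means were 545 ± 133 CPM in the libraries labelled KO and 545 ± 34.7 CPM in WT (SD, n = 3 each). The log2 fold change of Sdc4 was 6.9e-04 ± 0.22 (SE), with a 95% interval of -0.47 to 0.48 and an edgeR adjusted p of 0.99996. Changes of up to that size in either direction lie within the interval, and the sign of the estimate turned in 4 of the 13 other settings.

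Sdc1 and Sdc2 were less even among replicates. Sdc1 (ENSMUSG00000020592, chr12:8771323-8793715), the syndecan typical of epithelia, had 287, 185 and 128 CPM in replicates 4, 5 and 6 labelled KO, against 162, 198 and 113 CPM in WT. The groups overlapped, and only replicate 4 labelled KO lay outside the WT range. Sdc1 had a log2 fold change of 0.34 ± 0.36 (SE; 95% interval -0.44 to 1.12), and it was -0.01 without KO replicate 4. Sdc2 (ENSMUSG00000022261, chr15:32920723-33034935), the syndecan typical of mesenchymal cells, had 54.2, 72.8 and 42.2 CPM in replicates 4, 5 and 6 labelled KO, against 10.9, 54.0 and 76.3 CPM in WT. WT replicate 4 was low, with 18 counts, and the other 5 libraries were mixed. Sdc2 had a log2 fold change of 0.26 ± 0.71 (SE; 95% interval -1.27 to 1.79), and it was -0.21 without WT replicate 4.

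Gpc1 (ENSMUSG00000034220, chr1:92831645-92860779) encodes glypican 1, a heparan sulfate proteoglycan held on the membrane by a lipid anchor. It had 57, 21 and 29 counts in replicates 4, 5 and 6 labelled KO, against 28, 74 and 6 counts in WT. Both the lowest and the highest value were in WT. The log2 fold change of Gpc1 was -0.51 ± 1.77 (SE), with a 95% interval of -4.30 to 3.27, and it was 0.38 without WT replicate 5. Exons of Ankmy1 on the other strand cover 18.9% of its exon bases, and Ankmy1 had 0 counts in every library.

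The spread between replicates was wider than counting alone gives for most of these genes. For Gpc1 the coefficient of variation was 57.0% in the libraries labelled KO and 88.0% in WT, where counting error alone at its mean count would give 16.7% in each. For Sdc1 it was 40.3% in the libraries labelled KO and 27.2% in WT, against counting errors of 4.36% and 5.91% in the same order. Cd44 was the most even of the 9, at 7.84% in the libraries labelled KO and 2.63% in WT, where counting would give 2.39% and 4.10%. These figures treat reads as independent molecules, which amplified reads without molecular tags need not be.

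Ratios taken inside 1 library do not depend on how libraries are scaled. Cd44 had 0.933, 1.38 and 1.33 counts per Sdc4 count in replicates 4, 5 and 6 labelled KO, against 0.640, 0.603 and 0.588 in WT. Each library labelled KO was above each WT library, and replicate 4 labelled KO was the nearest to WT. Cd44 also had 0.254, 0.315 and 0.229 counts per Hspg2 count in replicates 4, 5 and 6 labelled KO, against 0.179, 0.178 and 0.204 in WT, again without overlap. Sdc4 made up 9.90% ± 1.36 of the counts of the 10 genes in the libraries labelled KO and 14.4% ± 1.11 in WT, without overlap (SD, n = 3 each). Its own mean was 545 CPM in both groups. The sum of the 10 genes was higher, at 5474 ± 809 CPM in the libraries labelled KO against 3800 ± 224 CPM in WT. The share of Cd44 was 11.8% ± 1.15 in the libraries labelled KO and 8.75% ± 0.401 in WT, also without overlap. Hspg2 held 44.9% ± 5.72 in the libraries labelled KO and 46.9% ± 1.76 in WT, and its groups overlapped. Counts of Dcn per Hspg2 count, and of Sdc1 and Sdc2 per Sdc4 count, overlapped between the groups. These ratios were chosen after the values were seen and are given as descriptions.

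**Figure D3:**
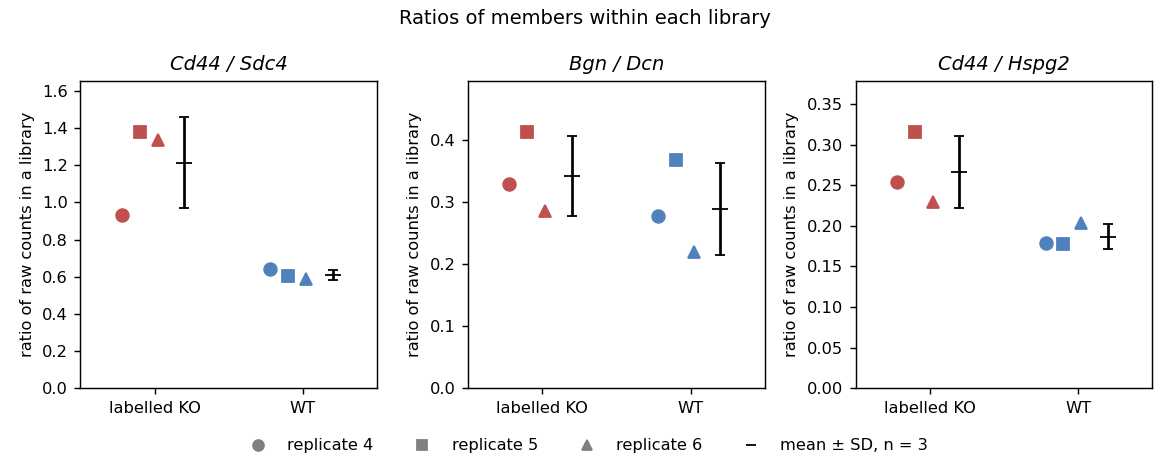
Ratio of raw counts of 2 genes within each library (y axis, from 0), for Cd44 over Sdc4, Bgn over Dcn and Cd44 over Hspg2, with the libraries labelled KO on the left and WT on the right. Bars are the mean ± SD (n = 3 each). Cd44 over Sdc4 lies between 0.933 and 1.38 in the libraries labelled KO and between 0.588 and 0.640 in WT, while Bgn over Dcn overlaps.

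By class, the matrix proteoglycans (Dcn, Bgn, Vcan and Hspg2) summed to 4335, 3262 and 4456 CPM in replicates 4, 5 and 6 labelled KO, against 2712, 2857 and 2528 CPM in WT. Every library labelled KO was above every WT library. Hspg2 was the largest part of this sum in every library, and on its own it overlapped between the groups. Dcn, Bgn and Vcan each did not overlap. The cell-surface heparan sulfate proteoglycans (Sdc1, Sdc2, Sdc4 and Gpc1) summed to 1054, 694 and 696 CPM in replicates 4, 5 and 6 labelled KO, against 695, 853 and 758 CPM in WT. Those sums overlapped, with 1 high library, replicate 4 labelled KO. Whether the classes differ in their response was not tested.

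Levels were compared between genes as CPM per kilobase of annotated exon. Sdc4 stood highest, at 214 ± 52.4 CPM per kb in the libraries labelled KO and 214 ± 13.6 in WT (SD, n = 3 each). Dcn followed at 191 ± 32.1 CPM per kb in the libraries labelled KO and 119.9 ± 6.10 in WT, and Hspg2 at 173 ± 39.9 in the libraries labelled KO and 125 ± 10.1 in WT. Cd44 had 94.6 ± 7.42 CPM per kb in the libraries labelled KO and 49.0 ± 1.29 in WT. Bgn had 61.9 ± 10.5 CPM per kb in the libraries labelled KO and 32.8 ± 6.82 in WT, and Sdc1 52.5 ± 21.2 in the libraries labelled KO and 41.4 ± 11.3 in WT. Sdc2 had 16.0 ± 4.37 CPM per kb in the libraries labelled KO and 13.3 ± 9.42 in WT. Gpc1 stood at 2.60 ± 1.48 in the libraries labelled KO and 3.71 ± 3.27 in WT, and Vcan at 3.64 ± 0.433 in the libraries labelled KO and 1.01 ± 1.08 in WT.

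With all exons as the length, the ranges over the 6 libraries did not overlap between Hspg2 and Cd44 or between Sdc1 and Sdc2. With the longest transcript the first of these gaps was lost, since Hspg2 had a minimum of 115 and Cd44 a maximum of 123 CPM per kb, and the second held. With all exons, Dcn and Hspg2 could not be ordered, since Dcn was the higher in 3 of 6 libraries. Neither could Bgn and Sdc1, where Bgn was the higher in 2 of 6. With the longest transcript, Dcn was above Hspg2 and Bgn above Sdc1 in every library, so these orders depend on the length used. With all exons, Sdc4 was above Dcn, and Cd44 above Bgn, in 6 of 6 libraries, but both of these depend on the length used as well. With the longest transcript in place of all exons, Bgn came before Cd44 and the other 8 genes kept their places in the mean over 6 libraries. Dcn then stood at 238 ± 40.0 CPM per kb of longest transcript in the libraries labelled KO, where Sdc4 had 222 ± 54.3. Sdc4 and the highly counted Hspg2 differ in rank between CPM and CPM per kb because their exon lengths are 2547 and 14307 bases.

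**Figure D4:**
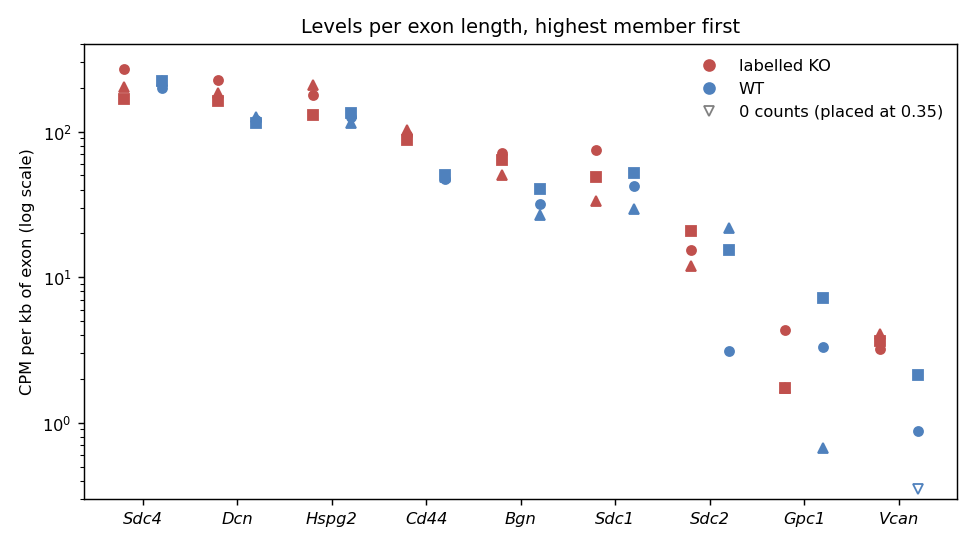
CPM per kb of exon (y axis, log scale) for the 9 detected genes in order of their mean, with each library labelled KO as a red symbol left of the blue WT symbols. The open triangle is the WT library with 0 counts of Vcan. Levels run from 214 for Sdc4 to 2.33 for Vcan on average over the 6 libraries, and the groups are separate for Dcn, Cd44, Bgn and Vcan.

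The 3 tested genes whose log2 CPM followed Sdc4, the member with the highest level per length, most closely over the 6 libraries were H13, Ccnb1 and Prdm10. Pearson's r was 0.971, 0.953 and 0.952 for them in that order. As many as 38 tested genes had an r of at least 0.9 over these 6 points, which share their depth and their group.

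Related genes were read from the same fit, in 6 lists of 118 gene symbols, of which 116 were found in the count table. The lists hold other proteoglycans, enzymes and transporters of the linker and its precursors, enzymes of the heparan sulfate and of the chondroitin and dermatan sulfate chains, enzymes of chain breakdown, and genes that make, bind or break down hyaluronan. Of these, 73 had a count and 47 were tested. None passed the adjusted threshold in edgeR. At an unadjusted p under 0.05, 2 were higher and 1 lower (2.70% and 3.79% of all tested genes). DESeq2 called 1 higher, B3gat3, where it called 1.28% of the tested genes higher. Groups did not overlap for 6 higher and 2 lower genes, 17.0% of the 47, where 14.9% of all tested genes did not overlap (6.94% higher, 7.93% lower). B3gat3 is among the higher genes by unadjusted p, by DESeq2 and by overlap. It had 0 counts in each WT library and passed the filter through the libraries labelled KO alone. The median log2 fold change was 0.15, against -0.02 over all tested genes.

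B3gat3 encodes the enzyme that adds the glucuronic acid which ends the linker shared by heparan and chondroitin sulfate chains. B3gat3 (ENSMUSG00000071649, chr19:8920374-8927236) had 97, 158 and 126 counts in replicates 4, 5 and 6 labelled KO and 0 counts in each WT library. It thus passed the filter on low counts through the libraries labelled KO alone, and 56 of the 8200 tested genes had 0 counts throughout 1 group. With WT set at 3 counts over the group, it was 84.1-fold higher in the libraries labelled KO. That value is a bound for counting error only. Counts of 0 also stood beside larger ones within a group, as for Col3a1 with 0, 0 and 88 counts in replicates 4, 5 and 6 labelled KO. The edgeR adjusted p of B3gat3 was 0.0833, and over the alternatives it ran from 3.7e-06 in DESeq2 to 0.464 with 1 library left out. No exon of another annotated gene overlaps it. The other tested genes of the linker and precursor list had no p under 0.05. They include Slc26a2, a sulfate transporter, at 10.3 ± 10.1 CPM in the libraries labelled KO and 49.5 ± 14.2 CPM in WT (edgeR adjusted p = 0.995). Uxs1, which makes UDP-xylose for the first sugar of the linker, had 51.5 ± 33.8 CPM in the libraries labelled KO and 20.2 ± 9.69 CPM in WT (edgeR adjusted p = 0.99996; SD, n = 3 each). The median over the 12 tested genes was 0.24 on the log2 scale. B3gat3 at its bound could not change it, since the bound still lies above the median.

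Among 11 tested genes of the heparan sulfate chain, none had a p under 0.05 and the median log2 fold change was -0.18. Sulf1 and Sulf2 encode extracellular enzymes that remove sulfate groups from finished chains. Sulf2 had 166, 112 and 86.6 CPM in replicates 4, 5 and 6 labelled KO, against 36.5, 49.0 and 102 CPM in WT (edgeR adjusted p = 0.877). Sulf1 had 357, 393 and 352 CPM in replicates 4, 5 and 6 labelled KO, against 214, 314 and 321 CPM in WT (edgeR adjusted p = 0.99996). Sulf1 was higher in every library labelled KO without overlap, by 1.30-fold, and Sulf2 overlapped through WT replicate 6. The sulfotransferase Hs6st2 had 129 ± 31.8 CPM in the libraries labelled KO and 74.5 ± 22.9 CPM in WT (SD, n = 3 each), also without overlap (edgeR adjusted p = 0.905).

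Of 5 tested genes of the chondroitin and dermatan sulfate chain, Chpf, a chondroitin polymerising factor, had 76.1, 76.6 and 76.3 CPM in replicates 4, 5 and 6 labelled KO, against 46.2, 30.0 and 53.8 CPM in WT. Its groups did not overlap, with a log2 fold change of 0.82 ± 0.55 (SE) and an edgeR adjusted p of 0.99996. Chst12 and Csgalnact2, a sulfotransferase and a chain-starting enzyme, had log2 fold changes of 0.87 ± 1.30 and 0.99 ± 1.93 (SE). The median over the 5 was 0.82, and none had a p under 0.05.

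Of 11 tested lysosomal genes of chain breakdown, 1 was higher and 1 lower at an unadjusted p under 0.05, and the median was -0.46. Arsb, which removes sulfate from chondroitin and dermatan sulfate, had 95.2, 111 and 64.8 CPM in replicates 4, 5 and 6 labelled KO, against 35.3, 53.5 and 30.1 CPM in WT (edgeR adjusted p = 0.736). Exons of other genes on the opposite strand cover 39.9% of the exon bases of Arsb, so part of its reads cannot be assigned with certainty. Glb1, the lysosomal beta-galactosidase, had 48.8, 8.56 and 18.3 CPM in replicates 4, 5 and 6 labelled KO, against 29.2, 64.0 and 169 CPM in WT (edgeR adjusted p = 0.699). The groups of Glb1 overlapped. Hgsnat, of heparan sulfate breakdown, had 24.8 ± 18.2 CPM in the libraries labelled KO and 67.5 ± 43.4 CPM in WT (SD, n = 3 each; edgeR adjusted p = 0.981).

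Other genes of hyaluronan and other proteoglycans were few. Has1 and Has3, the other synthases, had no count in any library. Hmmr, a hyaluronan-binding protein better known for its role at the mitotic spindle, had 191, 360.1 and 348 CPM in replicates 4, 5 and 6 labelled KO, against 319, 316 and 396 CPM in WT. Cemip2, a membrane protein reported to break down hyaluronan in mice, had 75.7, 74.5 and 62.4 CPM in replicates 4, 5 and 6 labelled KO, against 7.90, 49.0 and 59.0 CPM in WT. Cemip2 did not overlap by a narrow margin, and its edgeR adjusted p was 0.99996. Hyal2, a hyaluronidase, was nearly absent, with counts in 1 library labelled KO and 2 WT libraries. Of 27 other proteoglycan genes only Gpc4, Agrn and Tsku were tested. Gpc4, another glypican, had 119 ± 9.69 CPM in the libraries labelled KO and 91.8 ± 49.6 CPM in WT (SD, n = 3 each), and Agrn, the basement membrane proteoglycan agrin, had 41.5 ± 19.7 CPM in the libraries labelled KO and 37.5 ± 22.3 CPM in WT. Tsku stood at 16.5 ± 15.0 CPM in the libraries labelled KO and 10.7 ± 17.7 CPM in WT. All 3 had an edgeR adjusted p of 0.99996, and their groups overlapped. Among the untested ones, Lum, another small leucine-rich proteoglycan, had 3 counts in all and Cspg4 had 1. Others had most or all of their counts in 1 library. Prelp had 92 in replicate 4 labelled KO, Sdc3 had 53 in replicate 5 labelled KO and Gpc6 had 27 in WT replicate 4.

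**Figure D5:**
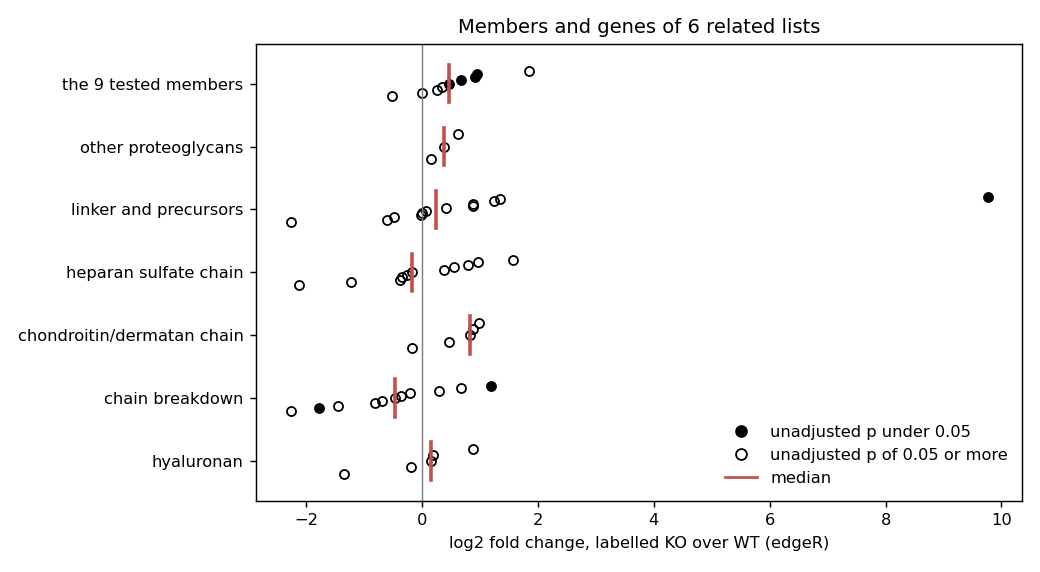
Log2 fold change, libraries labelled KO over WT (x axis), of the 9 tested genes described here and of 47 other tested genes in 6 lists of other proteoglycans, chain synthesis, modification and breakdown, and hyaluronan. Filled points have an unadjusted p under 0.05 and red bars are medians. B3gat3 is the filled point at 9.76, a fitted value against 0 WT counts that depends on the prior count.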

How the data were processed

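The table deposited by the authors gives unscaled read counts, 1 column for each of the 6 libraries. Per the submitters' processing notes the authors used fastp, HISAT2 2.0.5, featureCounts 1.5.0-p3 and the build mm10. The sources used here do not give the strand mode, the annotation release or whether duplicates were removed. Columns were matched to libraries through the labels, and symbols, coordinates and exon lengths come from GENCODE M21 of the same build, which matched 53360 of 53465 genes.

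The test was that of edgeR 4.0.16 (R 4.3.3), with filterByExpr (minimum count 10), TMM scaling, a robust quasi-likelihood fit with group as its only term, two-sided p-values, Benjamini-Hochberg adjustment over the 8200 genes kept and 0.05 as the threshold. Alternatives were DESeq2 1.42.0, limma-voom (limma 3.58.1), DESeq2 size factors, library totals, no filter, a stricter filter (1 CPM in 3 libraries and 50 counts), the replicate block and leaving out each library. The members and lists were chosen with earlier results of these data known. Named besides the members were Nat10, the 3 list genes with the smallest p in each list and the 3 genes most like the highest member. Has1, Has3, Lum, Cspg4, Prelp, Sdc3, Gpc6 and the marker genes were named after their values were seen.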

Additional observations from a re-analysis of the deposited data

How the results depend on the processing

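No member passed in limma-voom, with DESeq2 size factors, with the stricter filter, with the replicate block or with any 1 library left out (0 in each). DESeq2 called 3 members, library totals 1 and no filter on low counts 1. Of the list genes, 0 passed in edgeR, with 1 (B3gat3) in DESeq2 and 1 without a filter, and 0 with any library left out. Over all genes the count went to 234 in DESeq2, 91 without a filter and 43 with library totals. DESeq2 and the fit without a filter started from the 12794 genes with a count, and library totals from the 8200 kept. With 1 library left out the count over all genes was between 6 and 29. The replicate block gave 38 calls in place of 33 and changed no call of a member. Same-numbered libraries did not deviate together (r = -0.0167, -0.00258 and -0.00666 for numbers 4, 5 and 6), so the numbers were not taken to pair them. Library totals moved the median of all genes by 0.109 on the log2 scale, and Cd44 then had 1.06. Some estimates changed sign, among them ones not near 0 such as Csgalnact2 (0.99) and Hyal2 (-1.36). Sdc4 came to -0.025 in limma-voom and -0.026 with the replicate block, Nat10 to 0.019 in limma-voom and 0.026 with library totals, and Csgalnact2 to -0.44 in limma-voom. With 1 library left out, Sdc4 ran from -0.20 to 0.15, Sdc1 from -0.0082 to 0.58, Sdc2 from -0.21 to 0.79, Gpc1 from -1.07 to 0.38 and Nat10 from -0.35 to 0.35. In the same fits Tsku ran from -0.075 to 4.87, Agrn from -0.18 to 0.75, Chst12 from -0.28 to 1.495, Hmmr from -0.34 to 0.050 and Hyal2 from -7.31 to 0.065. The cause was not tested. With 3 libraries a group, intervals of Vcan, Gpc1 and Sdc2 span several log2 units.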
